A study of Mus musculus and Homo sapiens with 10 samples.

Results

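A group of 7 gene symbols was followed in mouse embryonic stem cells (mESCs) treated with vitamin C (vitC): Lars2 and Gm15564, which carry ribosomal RNA-like sequence, the long noncoding RNAs Malat1 and Neat1, and the RNA subunits Rmrp, Rpph1 and Terc. The symbols were chosen by their levels across the cultures of these same data, as measured in the gene table. Rows were taken by exact symbol from the gene table. Of the 7 symbols, 4 had a row among 25899 (Lars2, Gm15564, Malat1 and Neat1), and all 4 of these were detected in 4 libraries or more, as were 14631 genes in all. No row was found for Rmrp, Rpph1 and Terc under these or older names, so those RNAs were not analysed here. The annotation lists Lars2 as protein coding, so it is not itself a noncoding RNA, and RNA-seq of whole cells does not show where in the cell a transcript lies.

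The libraries came from E14 cells, an established mESC line, grown without feeders in 2i medium, which holds LIF and inhibitors of MEK and GSK3. Group sizes were 4 untreated control cultures and 4 cultures given vitC at 100 µg/ml for 24 h. Control and vitC libraries with the same replicate number carry the same culture label (10, 11, 35B and 35C for replicates 1 to 4), and each such pair is called a culture pair. Replicates 1 and 2 and replicates 3 and 4 are called culture sets. The labels 35B and 35C share a number, whereas no label joins 10 with 11, so their grouping rests on the data. The labels do not say whether the cultures were independent, so the p-values below measure the spread between these libraries, which may be technical. Per the methods, rRNA was depleted before library preparation, while the labels name rRNA depletion or mRNA isolation without saying which library had which, so a difference in this step and the culture sets cannot be told apart.

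Levels are given as RPM, the reads of a gene per 1000000 gene reads of its library, from reads recovered exactly out of the deposited values. Libraries held 3354852 to 6921305 gene reads. The naive pluripotency markers (Pou5f1, Sox2, Nanog, Klf4, Zfp42, Esrrb and Tfcp2l1) were all detected and summed to 4746 to 5293 RPM. Summed fibroblast markers were at 5.20 to 16.8 RPM, endoderm markers at 0.843 to 3.17 RPM and neural markers at 2.05 to 4.77 RPM, with Neurog2 at 0 reads. Mesendoderm markers (T, Eomes, Mixl1 and Gsc) were at 22.9 to 25.8 RPM in replicates 1 and 2 and at 9.70 to 13.7 RPM in replicates 3 and 4. The part of these markers in the results below was not tested.

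Ribosomal RNA is made by RNA polymerase I as a precursor that holds the 18S, 5.8S and 28S rRNAs, and it makes up most of the RNA of a cell, so it is usually removed before sequencing. Malat1 is an abundant RNA of nuclear speckles, bodies rich in splicing factors. Neat1 is the RNA scaffold of paraspeckles, and its short and long forms start at the same site. Rmrp and Rpph1 are the RNA subunits of RNase MRP and RNase P, which process pre-rRNA and pre-tRNA, and Terc is the template RNA of telomerase. Lars2 encodes the mitochondrial leucyl-tRNA synthetase, which charges the leucine tRNAs of mitochondria.

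Lars2 and Gm15564 share sequence with each other and with the rDNA repeat. Lars2 lies on chromosome 9 (GRCm38, the same build as mm10, chr9:123366927-123462666, plus strand), and Gm15564, annotated as an antisense RNA, lies on chromosome 16 (chr16:35966752-35983230, minus strand), across from parts of Kpna1 and Parp9. The coding transcript of Lars2, 3894 bases long, and a Gm15564 transcript of 402 bases had an identical run of 52 bases. The same 52 bases stood at 3 places of human chromosome 21 (hg38), 5625 to 5644 bases downstream of annotated 5.8S rRNA genes, where the 28S rRNA lies in the repeat. The windows below, each 30 bases long, show where this run ends in both transcripts and in one of the human copies. They are given 5′ to 3′, with the 1 position that differs among them in capitals:
Lars2 (chr9:123462087-123462116, plus strand, in exon 21 of 21, 3′ UTR): aacgtgagctgggAttagaccgtcgtgaga
Gm15564 (chr16:35981728-35981757, minus strand, in exon 2 of 4): aacgtgagctgggTttagaccgtcgtgaga
human rDNA (hg38, chr21:8218389-8218418, plus strand): aacgtgagctgggTttagaccgtcgtgaga
Counted from 1 at the 5′ end of the window, the difference from Gm15564 to Lars2 is T14A, and the human rDNA has the base of Gm15564. Mouse sequences are those of GENCODE transcripts, and the human window was read from the hg38 genome.

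The extent of this likeness was measured with 25-base words from the human rDNA repeat, from 4000 bases before to 7000 bases after the 5.8S gene RNA5-8SN2. In Lars2, 289 such words covered 385 bases between positions 3030 and 3417 of the transcript (chr9:123461800-123462187), in the 3′ UTR and in sense with the rRNA. In Gm15564, 48 words covered 72 bases between positions 179 and 250, which are the 71 bases of exon 2 and the base before it, also in sense. Of 55341 annotated mouse genes, 8 held at least 1 word, 0.0145%, and 3 of these had a row in the gene table. The third was AA474408, at 3 to 11 reads per library. Malat1 and Neat1 held no such word, nor did any annotated transcript of human LARS2. Matches were made to human rDNA, so bases that differ between the mouse and human repeats were missed.

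**Figure D1:**
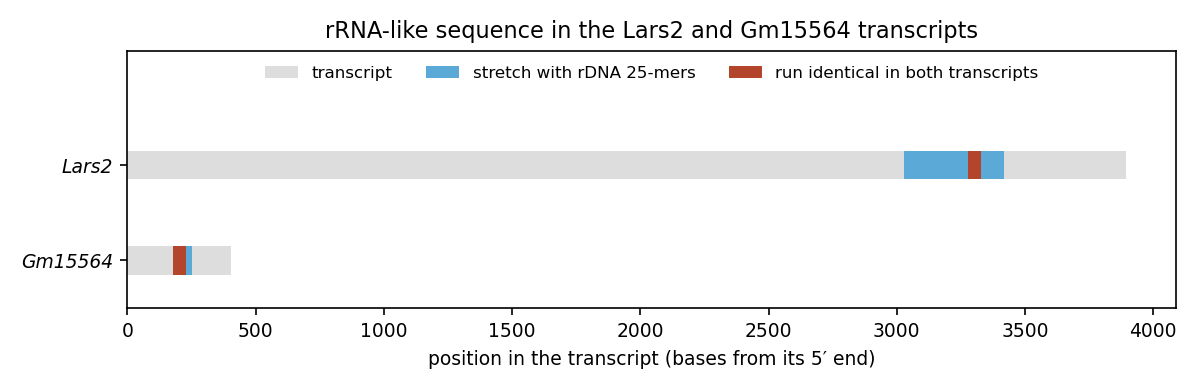
Position, in bases from the 5′ end, of the sequence shared with the rDNA repeat in the Lars2 transcript (3894 bases) and the Gm15564 transcript (402 bases). Blue marks the stretch with 25-base rDNA words (positions 3030 to 3417 and 179 to 250), and red marks the 52 bases identical in both transcripts.

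Lars2 and Gm15564 differed far more between culture sets than Malat1 and Neat1 did. In control replicates 1 to 4, Lars2 was at 791, 520, 45.0 and 132 RPM. In vitC replicates 1 to 4 it was at 542, 261, 73.9 and 110 RPM. All 4 libraries of replicates 1 and 2 were thus above all 4 of replicates 3 and 4, as held for 16.8% of tested genes, and the highest library was 17.6 times the lowest. On the deposited variance-stabilised scale, which is log2-like and compresses changes of genes with few reads, the mean was 11.39 ± 0.62 (SD, n = 4) in replicates 1 and 2 and 9.14 ± 0.53 (SD, n = 4) in replicates 3 and 4. That difference of -2.25 was the lowest of the 14631 tested genes, and in RPM it was 5.88-fold. The rank depends on the scale: by the difference in log2 RPM, Lars2 was number 111 from the lowest, and in the vitC libraries alone it was number 5 on the deposited scale. In such bulk libraries, fewer cells with a transcript and less of it per cell cannot be told apart.

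Gm15564 is counted from a locus of its own, and nothing is known here of a function for it. In control replicates 1 to 4, it was at 159, 107, 4.23 and 22.3 RPM. In vitC replicates 1 to 4 it was at 117, 53.2, 10.7 and 18.6 RPM. The culture sets did not overlap, the libraries stood in the same order as for Lars2, and the lowest value, in control replicate 3, rested on 19 reads against 979 in control replicate 1. The variance-stabilised mean was 9.37 ± 0.51 (SD, n = 4) in replicates 1 and 2 and 7.47 ± 0.42 (SD, n = 4) in replicates 3 and 4, a difference of -1.90, number 4 from the lowest of all tested genes and number 51 by log2 RPM. In RPM the sets differed 8.66-fold. Whether genes were counted by strand is not given in the sources used here. The protein-coding genes on the other strand moved otherwise: the culture set difference was 0.30 for Kpna1 and -0.08 for Parp9.

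**Figure D2:**
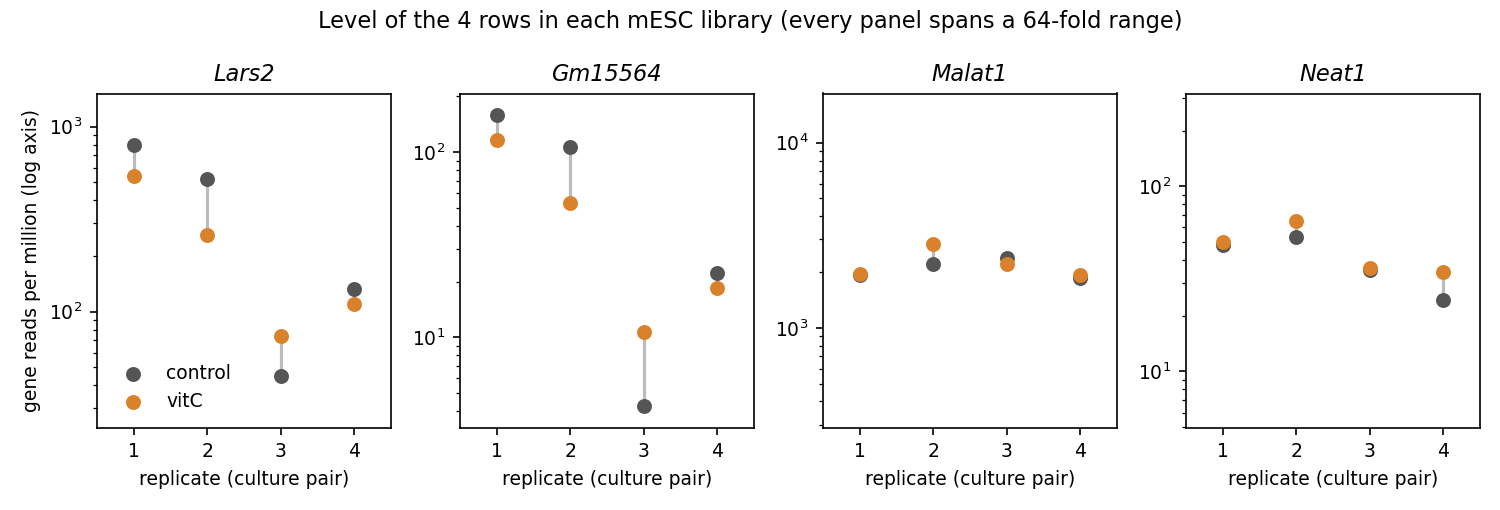
RPM (log axis, every panel spanning the same fold range) of Lars2, Gm15564, Malat1 and Neat1 in the 4 control (grey) and 4 vitC (orange) libraries, by replicate number, with a line joining each culture pair. Lars2 lies between 45.0 and 791, while Malat1 lies between 1869 and 2843.

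Neat1 (chr19:5824708-5845478, minus strand) was also lower in replicates 3 and 4, by a smaller amount. In control replicates 1 to 4 it was at 48.0, 53.4, 35.4 and 24.3 RPM, and in vitC replicates 1 to 4 at 50.3, 64.9, 36.4 and 34.4 RPM. The culture sets did not overlap. The difference of -0.49 on the variance-stabilised scale was 1.67-fold in RPM, and 2.78% of tested genes lay at or below it (11.1% by log2 RPM).

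Malat1 (chr19:5795690-5802672, minus strand) lies 22035 bases from Neat1 and was the most abundant of the 4 by read number. In control replicates 1 to 4 it was at 1928, 2199, 2372 and 1869 RPM, and in vitC replicates 1 to 4 at 1952, 2843, 2225 and 1921 RPM. The culture sets overlapped, with a difference of -0.09 that stood at the 32.2 percentile of tested genes. Between 38.8 and 77.0 Malat1 reads were counted per Neat1 read.

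These set differences are descriptions without a test, since the symbols were chosen with them in view. Over all tested genes, all 4 libraries of replicates 3 and 4 lay below all 4 of replicates 1 and 2 in 16.8% and above in 15.3%, and a mean at least 1 lower was seen in 0.301% (44 genes). Lars2, Gm15564 and Neat1 were among the genes that were lower throughout, and Lars2 and Gm15564 among those with a mean at least 1 lower. The median difference of all tested genes was -0.01, and the middle 50% lay between -0.13 and 0.11.

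**Figure D3:**
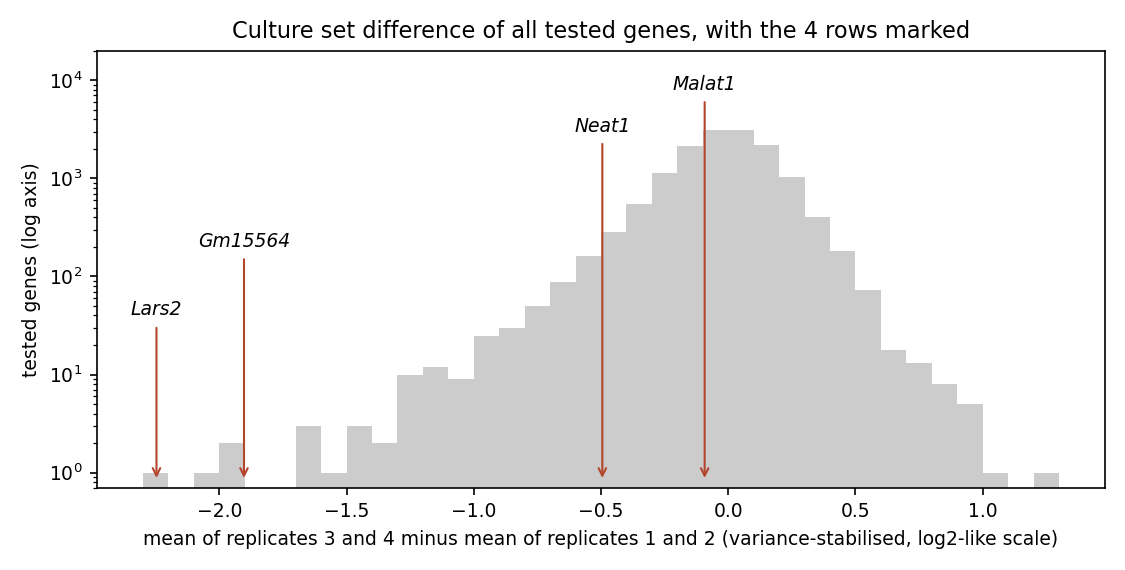
Histogram of the culture set difference (mean of replicates 3 and 4 minus mean of replicates 1 and 2, variance-stabilised scale) over 14631 tested genes, counts on a log axis, with arrows at the 4 rows. Lars2 at -2.25 and Gm15564 at -1.90 lie at the far left end, Neat1 at -0.49 in the left flank and Malat1 at -0.09 near the centre.

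Per length of the longest annotated transcript, given as RPKM (RPM per 1000 bases), Malat1 was at 268 to 407, Gm15564 at 7.76 to 291, Lars2 at 11.6 to 203 and Neat1 at 1.17 to 3.12. Malat1 was the highest of the 4 in 7 of 8 libraries and Neat1 the lowest in 8 of 8. Gm15564 stood above Lars2 in 7 libraries and below it in 1, control replicate 3, where Gm15564 had 19 reads. Their order was not tested. Neat1 reads were divided by the length of its long form, so its level per base of the short form would be higher.

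rRNA was measured separately, in the table of repeat subfamilies, through 3 rRNA subfamilies: SSU-rRNA_Hsa (small subunit), LSU-rRNA_Hsa (large subunit) and 5S. SSU-rRNA_Hsa moved with Lars2 and Gm15564. In control replicates 1 to 4 it held 1.71%, 1.13%, 0.0422% and 0.153% of the subfamily counts. In vitC replicates 1 to 4 it held 1.61%, 0.540%, 0.0885% and 0.145%. The sets did not overlap, a split that was not counted over all subfamilies. The tRNA class was also lower throughout, at 0.0983% to 0.119% in replicates 1 and 2 and 0.0613% to 0.0840% in replicates 3 and 4. So was the scRNA class, at 0.0807% to 0.106% and 0.0526% to 0.0763%, whereas the srpRNA, snRNA and RNA classes overlapped. All these shares are parts of the same total. Of it, LSU-rRNA_Hsa held 41.5% to 49.8% in replicates 1 and 2 and 59.8% to 63.0% in replicates 3 and 4. A larger LSU-rRNA_Hsa share lowers the others, and how much of these differences it makes up was not tested. For SSU-rRNA_Hsa, the 8 libraries stood in exactly the order of Lars2. Of 1040 subfamilies with at least 1 count in every library, this was the only one in that order (0.0962%). Of the tested genes, 4 had it (0.0273%): Lars2 itself, Gm15564, 4933402E13Rik at 4.68 to 17.8 RPM and Gm20537 at 29.4 to 52.5 RPM, the last 2 being named here after their values were seen.

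The ratios between these counts varied little beside the levels themselves. For each Lars2 read, 6.60 to 13.3 SSU-rRNA_Hsa counts were found, a 2.02-fold range. The sets did not overlap in this ratio, at 9.73 to 13.3 in replicates 1 and 2 and 6.60 to 9.50 in replicates 3 and 4. These are expected counts, which share multi-mapped reads among copies, and in control replicate 1 only 4735 of 56543 mapped uniquely. By uniquely mapped counts this split did not hold: control replicate 2 had 987 for 2696 Lars2 reads, and vitC replicate 4 had 528 for 522. For each Gm15564 read, 47.3 to 70.2 SSU-rRNA_Hsa counts were found, a 1.49-fold range in which the sets overlapped. Lars2 reads per Gm15564 read were at 4.64 to 4.98 in replicates 1 and 2 and at 5.93 to 10.6 in replicates 3 and 4, where both were low. How the authors' gene counting treated reads that map to several places is not given in the sources used here. Whether the reads of Lars2 and Gm15564 lay on the rRNA-like stretch, and whether they were also counted as rRNA, was not tested, as the files hold counts per gene and per subfamily.

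LSU-rRNA_Hsa, the larger part of the rRNA counts, went the other way. It held 49.8%, 43.9%, 60.4% and 59.8% of subfamily counts in control replicates 1 to 4, and 42.6%, 41.5%, 63.0% and 61.5% in vitC replicates 1 to 4. All 4 libraries of replicates 3 and 4 were above all 4 of replicates 1 and 2, which was not counted over all subfamilies either. LSU-rRNA_Hsa counts per Lars2 read therefore ran from 337 in control replicate 1 to 9464 in control replicate 3. The sequence that Lars2 shares with the repeat is of the large subunit kind. LSU-rRNA_Hsa counts are totals without positions, so reads on the shared stretch could not be compared. 5S made up 0.00188% to 0.00426%. The 95% Wilson intervals of these shares reached at most 0.147% of the value to either side for LSU-rRNA_Hsa, 5.51% for SSU-rRNA_Hsa and 27.9% for 5S. They take each expected count as a read and cover counting error only. Neither the assignment of multi-mapped reads nor the spread between libraries is in them.

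**Figure D4:**
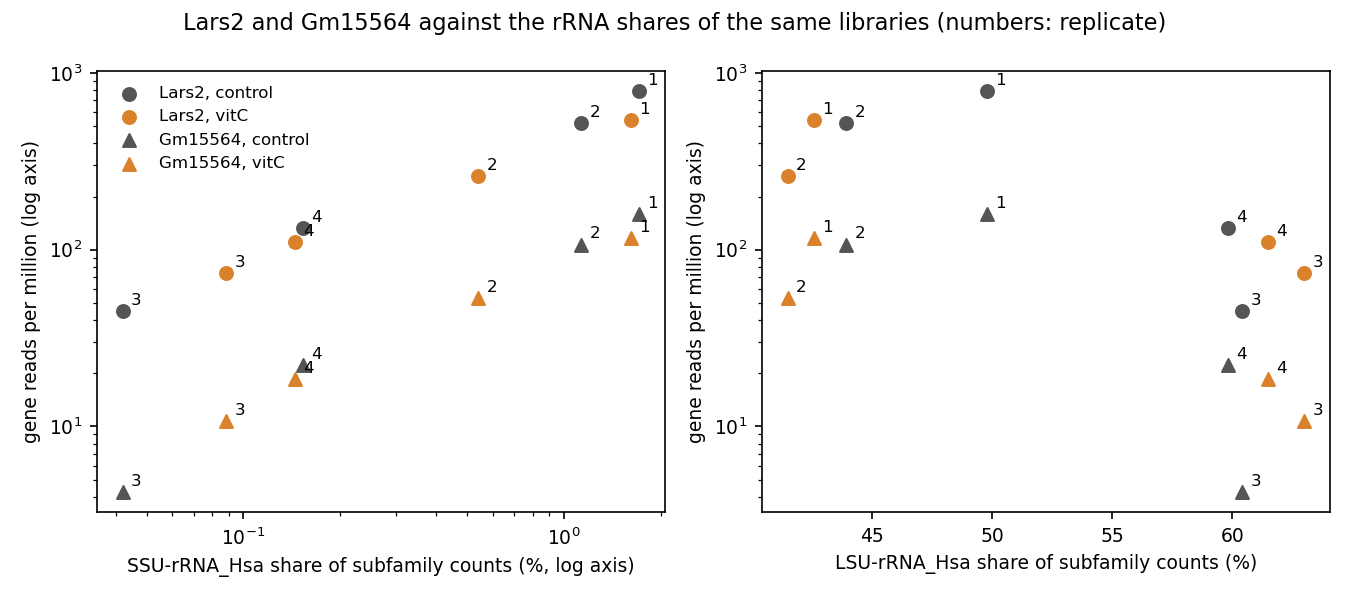
RPM of Lars2 (circles) and Gm15564 (triangles), on a log axis, against the share of subfamily counts held by SSU-rRNA_Hsa (left, log axis) and LSU-rRNA_Hsa (right), with control libraries in grey, vitC libraries in orange and replicate numbers beside the points. Levels climb with the SSU-rRNA_Hsa share from 0.0422% to 1.71%, whereas libraries with 59.8% to 63.0% LSU-rRNA_Hsa hold the low values.

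With vitC, none of the 4 rows was past the threshold of an adjusted p of 0.05 in the unpaired fit (limma with Benjamini-Hochberg adjustment over all tested genes), in which 0.342% of tested genes were called (0.321% higher and 0.0205% lower). Lars2 differed by -0.28 on the variance-stabilised scale (standard error 0.77, limma adjusted p = 0.968) and Gm15564 by -0.20 (standard error 0.65, limma adjusted p = 0.974). The 95% interval for Lars2 ran from -2.0 to 1.44, far wider than the difference itself. Malat1 differed by 0.09 (interval -0.20 to 0.39, limma adjusted p = 0.934) and Neat1 by 0.15 (interval -0.25 to 0.54, limma adjusted p = 0.915).

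Within culture pairs the direction was not uniform for Lars2 and Gm15564. The vitC to control ratio of Lars2 RPM was 0.685, 0.502, 1.64 and 0.831 in pairs 1 to 4, and that of Gm15564 was 0.736, 0.497, 2.54 and 0.834. Both were thus lower with vitC in pairs 1, 2 and 4 and higher in pair 3, the pair with the lowest levels. The same ratio for the SSU-rRNA_Hsa share was 0.942, 0.478, 2.10 and 0.946. Its direction matched in each pair, which the shared order of the 8 libraries already fixes. The sizes depend on the counts used. As a share of uniquely mapped counts, SSU-rRNA_Hsa went from 0.703% in control to 0.305% with vitC in pair 1, and from 0.148% to 0.103% in pair 2. Counting intervals excluded a ratio of 1 in every pair for Lars2 and in pairs 1 to 3 for Gm15564.

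With the replicate number as a block, Lars2 (limma adjusted p = 0.172) and Gm15564 (limma adjusted p = 0.278) stayed outside the threshold, although 10.8% of tested genes were called (6.36% higher and 4.44% lower). The blocked 95% interval, not adjusted over genes, ran from -0.55 to -0.02 for Lars2 and from -0.43 to 0.03 for Gm15564. Without pair 3, chosen after the data were seen, the blocked difference was -0.55 for Lars2 (limma adjusted p = 0.000271) and -0.42 for Gm15564 (limma adjusted p = 0.00279). The edgeR fit with the same block on recovered reads called both lower on all 4 pairs. The log2 changes were -0.50 for Lars2 (edgeR adjusted p = 4.67e-05) and -0.55 for Gm15564 (edgeR adjusted p = 9.18e-05). With any 1 pair left out, edgeR still called both lower (largest edgeR adjusted p = 0.00112 for Lars2 and 0.0127 for Gm15564). The call thus depends on the tool, and in limma on pair 3.

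Neat1 was higher with vitC in 4 of 4 pairs, which held for 15.4% of tested genes. Its RPM ratio was 1.05, 1.22, 1.03 and 1.42 in pairs 1 to 4, and the counting interval excluded 1 in pairs 2 and 4. The blocked difference was 0.15 (95% interval 0.04 to 0.26, limma adjusted p = 0.0735), and edgeR with the block put the change at 0.22 in log2 (adjusted p = 0.0491). Of the limma fits with the block and a pair left out, only that without pair 3 passed the threshold (limma adjusted p = 0.0485).

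For Malat1 the RPM ratios were 1.01, 1.29, 0.938 and 1.03. The blocked difference was 0.09 (95% interval -0.01 to 0.19, limma adjusted p = 0.234) and came mainly from pair 2, without which it was -0.0032 on the variance-stabilised scale.

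**Figure D5:**
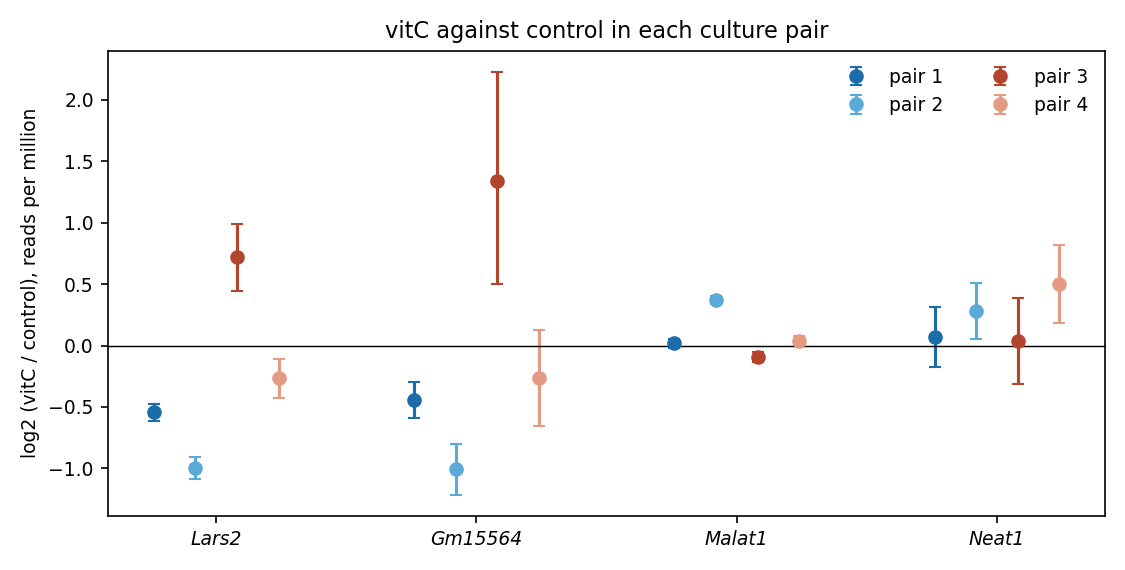
log2 ratio of vitC to control RPM for each row in culture pairs 1 to 4, with bars for the exact 95% counting interval. Lars2 and Gm15564 lie below 0 in pairs 1, 2 and 4 and above it in pair 3, while Neat1 lies above 0 in all 4 pairs and the point furthest from 0 for Malat1 is in pair 2.

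The share of subfamily counts held by all rRNA averaged 54.3% ± 7.38 in the control libraries and 52.7% ± 11.2 in those with vitC (SD, n = 4 each). The vitC minus control difference was -7.30, -3.02, 2.61 and 1.64 percentage points in pairs 1 to 4. As a share of the aligned library it was -6.15, -0.499, 0.418 and -0.754 points, so pair 4 was negative there. The mean difference of -1.52 points of subfamily counts was smaller than the spread between replicates, and the share was not tested.

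Further lists of genes were counted, chosen with earlier results of these data known: proteins that work with Rmrp, Rpph1, Terc, Neat1 or Malat1, other long noncoding RNAs, the mitochondrial synthetases, and the replication-dependent histone genes. In the unpaired fit, 0 of their 140 tested members were called, with 8 at an unadjusted limma p under 0.05, and edgeR and DESeq2 on the recovered reads called 0 as well. With the replicate block, limma called 54, of which 52 were lower. Of these, 47 were among 68 histone genes, whose mRNAs end in a stem-loop in place of a poly(A) tail, a share of 69.1% where 4.44% of all tested genes were called lower. Their median difference with vitC was -0.15, against -0.0020 over all tested genes and -0.093 (telomerase) to 0.0019 (mitochondrial synthetases) over the other lists. Hist1h2aa, the histone gene with the smallest unpaired p, went the other way, at 0.17 (limma adjusted p = 0.408, and 0.0612 with the block). The summed level of the histone genes also differed between sets, at 15038 to 18763 RPM in replicates 1 and 2 and 21960 to 25120 RPM in replicates 3 and 4, and 62 of the 68 were higher in every library of the latter, as held for 15.3% of tested genes.

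The other lists together held 7 calls of 72 with the block, 9.72%, near the 10.8% of all tested genes. Of 10 tested RNase P and RNase MRP proteins, limma with the block called 1, Pop1, the large scaffold subunit, which differed by -0.27 and was lower in 4 of 4 pairs (limma adjusted p = 0.00195, and 0.217 unpaired). Of 9 telomerase genes it called 0, and the smallest p was that of Nop10, a core H/ACA protein (-0.14, limma adjusted p = 0.0514). Among 15 paraspeckle proteins it called 1 lower, Nono, a protein that binds Neat1 (-0.16, limma adjusted p = 0.0142, and 0.599 unpaired), and among 15 nuclear speckle proteins 2 lower, with Bclaf1 at -0.14 (limma adjusted p = 0.0171, and 0.621 unpaired). The block called 1 of 7 other long noncoding RNAs, Snhg3, a host gene of small nucleolar RNAs, which differed by -0.36 and was lower in 3 of 4 pairs (limma adjusted p = 0.004, and 0.749 unpaired), at 543 to 1175 RPM. Of the small structural RNAs and rRNA genes on the lists, none had a row.

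Lars2 stood apart from the other mitochondrial aminoacyl-tRNA synthetases, its family. The culture set differences of the 16 others ran from -0.38 (Iars2) to 0.38 (Yars2), with a median of 0.04, and their summed level was at 668 to 742 RPM in every library. With vitC the block called 2 of the 16, 12.5% against 10.8% of all tested genes, among them Fars2 at 0.22 (limma adjusted p = 0.0135, and 0.498 unpaired).

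By Pearson's r of the variance-stabilised values over the 8 libraries, Lars2 was most like Gm15564 (r = 0.9997). Outside the group of symbols, the genes most like Lars2 were Xlr (r = 0.983), Sord (r = 0.980) and Inppl1 (r = 0.978), and those most like Gm15564 were Xlr (r = 0.987), Sord (r = 0.981) and Jrk (r = 0.979). Their own set differences were small beside that of Lars2, from -0.47 for Sord to -0.19 for Inppl1. Neat1 was most like Wbp7 (r = 0.991), Sipa1l1 (r = 0.988) and Etl4 (r = 0.985), and Malat1 most like Mdn1 (r = 0.943), Vps45 (r = 0.942) and Scn3a (r = 0.929). The libraries fall into the culture sets, which alone gives high values of r to any genes that differ between them, and r was not tested.

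The human counterparts were read in 1 control and 1 vitC library of primed human embryonic stem cells (hESCs), labelled H9, without replicates and hence without a test. The methods describe primed H9 cells and also H9-NK2 cells, which carry inducible KLF2 and NANOG transgenes, and do not say which gave these libraries. LARS2 was at 65.4 RPM in control and 66.3 RPM with vitC (1005 and 1140 reads, log2 ratio 0.02, exact 95% counting interval -0.10 to 0.14). MALAT1 was at 338 and 276 RPM (log2 ratio -0.29, interval -0.35 to -0.24) and NEAT1 at 11.8 and 14.3 RPM (log2 ratio 0.27, interval -0.02 to 0.55). RMRP had 4 and 7 reads, RPPH1 14 and 13, and TERC 1 and 0, too few to compare. The rRNA subfamilies were listed at 0 counts in both libraries, as were the tRNA, snRNA, scRNA and srpRNA classes, whereas in mESCs the latter 4 classes held counts in every library. Intervals cover counting error only.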

How the data were processed

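RNA-seq libraries of 4 control and 4 vitC mESC cultures and of 1 control and 1 vitC hESC culture were analysed. Per the labels and methods, the authors trimmed reads with Trim Galore and mapped them to mm10 or hg38 (HISAT2 is named), and SQuIRE, whose version is not given in the sources used here, counted genes and repeat subfamilies. For genes, the deposited values are variance-stabilised, on a log2-like scale. For repeats, the authors deposited uniquely mapped counts, expected counts that share multi-mapped reads among copies, and aligned library sizes. Here, 8 further columns of per-sample values were not used.

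The transformation was inverted, with 1 read as the smallest step of each library. Within a tolerance of 0.01 read, 100% of 116385 mESC values above the lowest came out whole. These reads gave RPM and were tested with edgeR 4.0.16 (quasi-likelihood, TMM) and DESeq2 1.42.0 as alternatives. vitC was compared with control by limma 3.58.1 (lmFit, eBayes with trend, R 4.3.3) on the deposited table, keeping genes with a read in 4 libraries or more, at a Benjamini-Hochberg adjusted p of 0.05. The study's methods name no term for the culture pair, so the block on replicate number was an alternative. Numbers pair libraries by culture label, and deviations from group means correlated at 0.626 to 0.765 within numbers, against 0.574 to 0.665 between the numbers of a culture set. Other alternatives were other filters, no trend, quantile normalization, each library left out and each culture set alone. rRNA shares are expected counts of rRNA subfamilies over those of all subfamilies.

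Words of 25 bases with at least 12 distinct 3-base words were taken from hg38 on both strands and searched in GENCODE M21 and 44 transcripts. Scripts were tested on simulated counts. The members, lists and tests were chosen with earlier results of these data known. All symbols of the rule were named, plus for each row the 3 genes with the highest Pearson's r, of each list the members past the unpaired threshold (none) or else the one with the smallest unpaired p, all rRNA subfamilies and the human counterparts. mESC libraries held 2321035 to 5124928 subfamily counts, and hESC libraries 15367652 and 17188555 gene reads. Depth limits the precision of Gm15564 and Neat1 most.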

Additional observations from a re-analysis of the deposited data

Results flagged for a closer look

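As a share of subfamily counts, rRNA moved with vitC in opposite directions in the culture sets. For LSU-rRNA_Hsa the vitC minus control difference was -7.21 and -2.43 percentage points in pairs 1 and 2, and 2.56 and 1.65 points in pairs 3 and 4. For all rRNA it was -7.30, -3.02, 2.61 and 1.64 points. As a share of uniquely mapped counts it was -6.29, -3.89, 5.58 and 4.06 points. As a share of the aligned library the sets did not go opposite ways: LSU-rRNA_Hsa differed by -6.00, -0.290, 0.396 and -0.746 points in pairs 1 to 4. With 2 pairs in each set, the difference between the sets was not tested. In none of 16 groups of 4 libraries did a row or an rRNA share have a sample far from the other 3 by Dixon's criterion. Each group held libraries of both culture sets. Where the sets differ, the criterion could hardly single out 1 library, so no conclusion is drawn from it.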

How the results depend on the processing

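The count of genes called with vitC (50 unpaired) was 1581 with the replicate block, 1947 with edgeR and the replicate block, 122 with DESeq2, 28 with the stricter filter, 175 in replicates 1 and 2 only and 4 in replicates 3 and 4 only, 19 to 32 unpaired with a library left out, and 870 to 1724 in fits with the replicate block and a pair left out. Of the 4 genes, 0 were called in every fit on all pairs except edgeR with the replicate block, which called 3, and 0 to 4 with a library or a pair left out. Of the 140 list genes, the replicate block called 54, edgeR with it 69, replicates 1 and 2 only 3, and fits with a library or pair left out 0 to 69. In replicates 3 and 4 only, the vitC difference turned to 0.15 for Lars2 and 0.16 for Gm15564 and to -0.017 for Malat1. With a library or pair left out it ran from -0.93 to 0.26 for Lars2, -0.73 to 0.25 for Gm15564, -0.033 to 0.16 for Malat1 and 0.01 to 0.29 for Neat1. As log2 RPM, the culture set difference was -3.10 for Gm15564 and -0.74 for Neat1, a scale without the compression of low values, on which Lars2 stood at number 111, Gm15564 at 51 and Neat1 at 1624 from the lowest, in place of 1, 4 and 407. With a library left out it stayed between -2.53 and -2.02 for Lars2, -2.14 and -1.72 for Gm15564, -0.54 and -0.41 for Neat1, and -0.16 and 0.03 for Malat1. The vitC difference of the rRNA share was -0.14 points of uniquely mapped counts and -1.75 points of the aligned library, and ran from -4.96 to 2.05 points with a library left out. The fits that leave out a pair under the block were added after seeing the data. The cause of these changes was not tested.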
